A study of Mus musculus with 8 samples.

Results

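PGC-1 coactivators are proteins without DNA binding of their own that dock on nuclear receptors and other transcription factors and raise the transcription of genes for mitochondria, fatty acid oxidation and the respiratory chain. In heart muscle, which burns mainly fatty acids, their best known partners are the estrogen-related receptors, the PPARs with their dimer partner RXR, and nuclear respiratory factor 1, which in turn acts on the gene for the mitochondrial transcription factor TFAM. The genes described here are 10 of the 33514 rows of a gene count table: the coactivators PPARGC1A (PGC-1alpha) and PPARGC1B (PGC-1beta), the estrogen-related receptors ESRRA, ESRRB and ESRRG, the receptors PPARA, PPARD and RXRA, and the factors NRF1 and TFAM. They were picked by symbol, with the comparison of siHoxa5 with siN libraries already known for PPARGC1A and ESRRG. Their values in that comparison are therefore a description: where it is said that a member passed the threshold, the call comes from the fit over all genes and supports nothing about the choice.

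The 8 libraries come from adult C57BL/6 mouse cardiomyocytes, isolated with collagenase and left to settle by gravity, then cultured and transfected. A control siRNA (siN) was given to 4 and an siRNA against the homeobox gene Hoxa5 (siHoxa5) to the other 4. Phenylephrine, which drives hypertrophic growth through alpha1-adrenergic receptors, was added to all 8 at 100 µM, 24 h after transfection, for 24 h; no library without it was used here. The labels do not say whether repeats came from separate animals or cultures, so every error and p-value reflects only how far these libraries differ, which may be technical.

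Library totals ranged from 560190 to 658192 counts, and HOXA5 itself had 0 to 4 counts in a library, 8 in all in siN and 9 in siHoxa5. The ratio of rates, siHoxa5 over siN, was 1.24 (exact 95% interval 0.426 to 3.70, counting error only). A lower level of the target was thus not seen, and a reduction within this interval was not detectable. Directions are those of libraries labelled siHoxa5 against libraries labelled siN. The rows are those of a human gene set: 1795 symbols begin with LINC and 20 with HLA-, and none has a mouse-only form (ending in Rik, or beginning with Gm and a number or with H2-). The submitters' notes name the mouse build mm10, and whether the mouse reads were counted against mouse or human sequence could not be settled here. If it was human sequence, a count holds only reads that match across the species, so a 0 or a low level may not reflect the transcript. Of 16 cardiomyocyte markers, TNNI3, PLN, MYL2, MYL3, MB, NPPA and NPPB stood at 0 in every library. The other 9 markers, MYH6 and MYH7 among them, held 5.34% to 5.67% of the counts in siN and 6.71% to 6.93% in siHoxa5 libraries. MYH6 and MYH7 supplied most of these counts, so the share mainly follows them. Of the 9 tested, 4 were higher past the threshold and 4 were not past it, and 1, TNNT2, was lower (log2 fold change -0.44, SE 0.13). Of all genes tested 3.74% were higher and 3.38% lower. Endothelial, smooth muscle, leukocyte and adipocyte markers held at most 0.00535% of the counts of any library, and fibroblast markers 1.01% to 1.08% in siN against 1.07% to 1.26% in siHoxa5. Of the 10 fibroblast markers 8 had a count (LUM and TCF21 were at 0), and of the 10 adipocyte markers only 2 had one, with ADIPOQ, LEP and UCP1 at 0. COL1A1 and COL1A2 held nearly all of the fibroblast counts (22762 and 4300 in siN), while DCN had 0 in siN and 1 in siHoxa5. Skeletal muscle markers, 7 of 10 with a count and MYOD1 at 0, held 0.0836% to 0.0961% in siN and 0.0987% to 0.112% in siHoxa5. Nearly all of these counts were of ACTA1 (2268 in siN and 2394 in siHoxa5). The part of these shares in the results below was not tested, and in bulk RNA fewer cells of a type and less RNA per cell cannot be told apart. On the first principal component of log2 CPM (counts scaled to a common library size by TMM factors), siHoxa5 libraries 2 and 4 (scores 10.8 and 10.9) lay apart from siHoxa5 libraries 1 and 3 (2.74 and 4.69) and from siN (-7.77 to -6.30). On the second component siHoxa5 libraries 2 (8.30) and 4 (-13.4) were the highest and the lowest of all libraries, so these libraries also differed from each other.

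The promoters of Ppargc1a and Esrra are shown because Ppargc1a had the largest difference of the members between siHoxa5 and siN, while Esrra, the gene of its partner receptor, was nearly level. Each run is the 250 bases before the RefSeq start site on the gene's strand (GRCm38.p6), chr5:51567726-51567975, minus strand, for Ppargc1a and chr19:6921809-6922058, minus strand, for Esrra. Capitals mark a match to any of the motifs searched.
Ppargc1a: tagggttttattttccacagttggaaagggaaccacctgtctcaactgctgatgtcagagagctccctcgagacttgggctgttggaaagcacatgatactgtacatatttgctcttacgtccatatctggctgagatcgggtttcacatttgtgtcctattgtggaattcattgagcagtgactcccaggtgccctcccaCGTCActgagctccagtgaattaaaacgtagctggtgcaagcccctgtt
Esrra: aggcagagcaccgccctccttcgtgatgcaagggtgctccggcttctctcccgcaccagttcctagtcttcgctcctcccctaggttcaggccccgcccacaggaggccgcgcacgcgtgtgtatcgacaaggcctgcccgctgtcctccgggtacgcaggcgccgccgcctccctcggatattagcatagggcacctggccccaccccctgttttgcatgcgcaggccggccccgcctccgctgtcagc

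The motifs searched on both strands were the cAMP response element TGACGTCA and its core TGACG, which every full element also holds, the estrogen-related receptor element TNAAGGTCA and the nuclear receptor half-site AGGTCA, which lies within it, the NRF1 site (GCGCA and GCGC with any base between them), the homeodomain core TAATTA and the composite HOX and PBX core TGATTNAT. Ppargc1a held only the cAMP core, on the opposite strand, 49 to 45 bases before the start. That core occurred in 17.8% of the 32851 RefSeq windows of the same length, and the full element in 1.55%. Esrra and the 4 start sites listed for Esrrg held no match. Of the other members in the table, Esrrb held the cAMP core at 2 places, Ppara held it once together with an NRF1 site, which 3.74% of all windows hold, 1 of 2 Rxra starts held 2 half-sites (in 14% of all windows), and 1 of 2 Nrf1 starts held the homeodomain core (in 4.84%). Ppard and Tfam held none. GC content was 48% before Ppargc1a and 68.4% before Esrra, against a median of 52.4% over all windows. These are matches of letters only, and nothing in the counts shows which start site was used.

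PPARGC1A, the coactivator that responds most to cold, exercise and beta-adrenergic signalling in other settings, was higher in every siHoxa5 library than in any siN library. It lies on mouse chromosome 5 (GRCm38, 51454250 to 51567726, minus strand, GENCODE M21 gene ENSMUSG00000029167.13). The siN libraries 1 to 4 held 68, 81, 70 and 62 counts, or 105, 129, 110.2 and 94.98 CPM. The siHoxa5 libraries 1 to 4 held 158, 169, 149 and 115 counts, or 258, 308, 243 and 209 CPM. The groups did not overlap, and the lowest siHoxa5 value, in library 4, stood well above the highest siN value, in library 2. The siN mean was 109.6 ± 14.1 CPM and the siHoxa5 mean 254 ± 41.0 CPM (SD over 4 libraries). On the log2 scale the difference was 1.21 (SE 0.13), or 2.32-fold. Summed over each group, 281 counts stood against 591, a ratio of rates with an exact 95% interval of 2.01 to 2.69 for counting error only. siHoxa5 libraries 2 and 4 were the highest and the lowest of their group; without both, the log2 fold change was 1.20. Among the 3020 genes that passed the filter on low counts, 7 had a larger log2 fold change.

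PPARGC1B, the paralog that shares most receptor partners with PPARGC1A, had fewer counts in siHoxa5 than in siN, within counting error. Its siN libraries held 15, 14, 8 and 7 counts and its siHoxa5 libraries 7, 14, 6 and 4, so the groups overlapped. The sums, 44 and 31, gave a rate in siHoxa5 that was 0.778 of that in siN (exact 95% limits 0.475 and 1.26, counting error only), and PPARGC1B was under the filter on low counts. The ratio seen for PPARGC1A was above these limits, but it was known when the members were chosen. The limits also leave out differences between libraries, so a difference between the paralogs was not tested. PPRC1, the third member of the family and counted in the wider network below, averaged 48.7 CPM in siN and 39.0 CPM in siHoxa5 libraries (-0.31 in log2, SE 0.23) and did not pass the test.

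**Figure D1:**
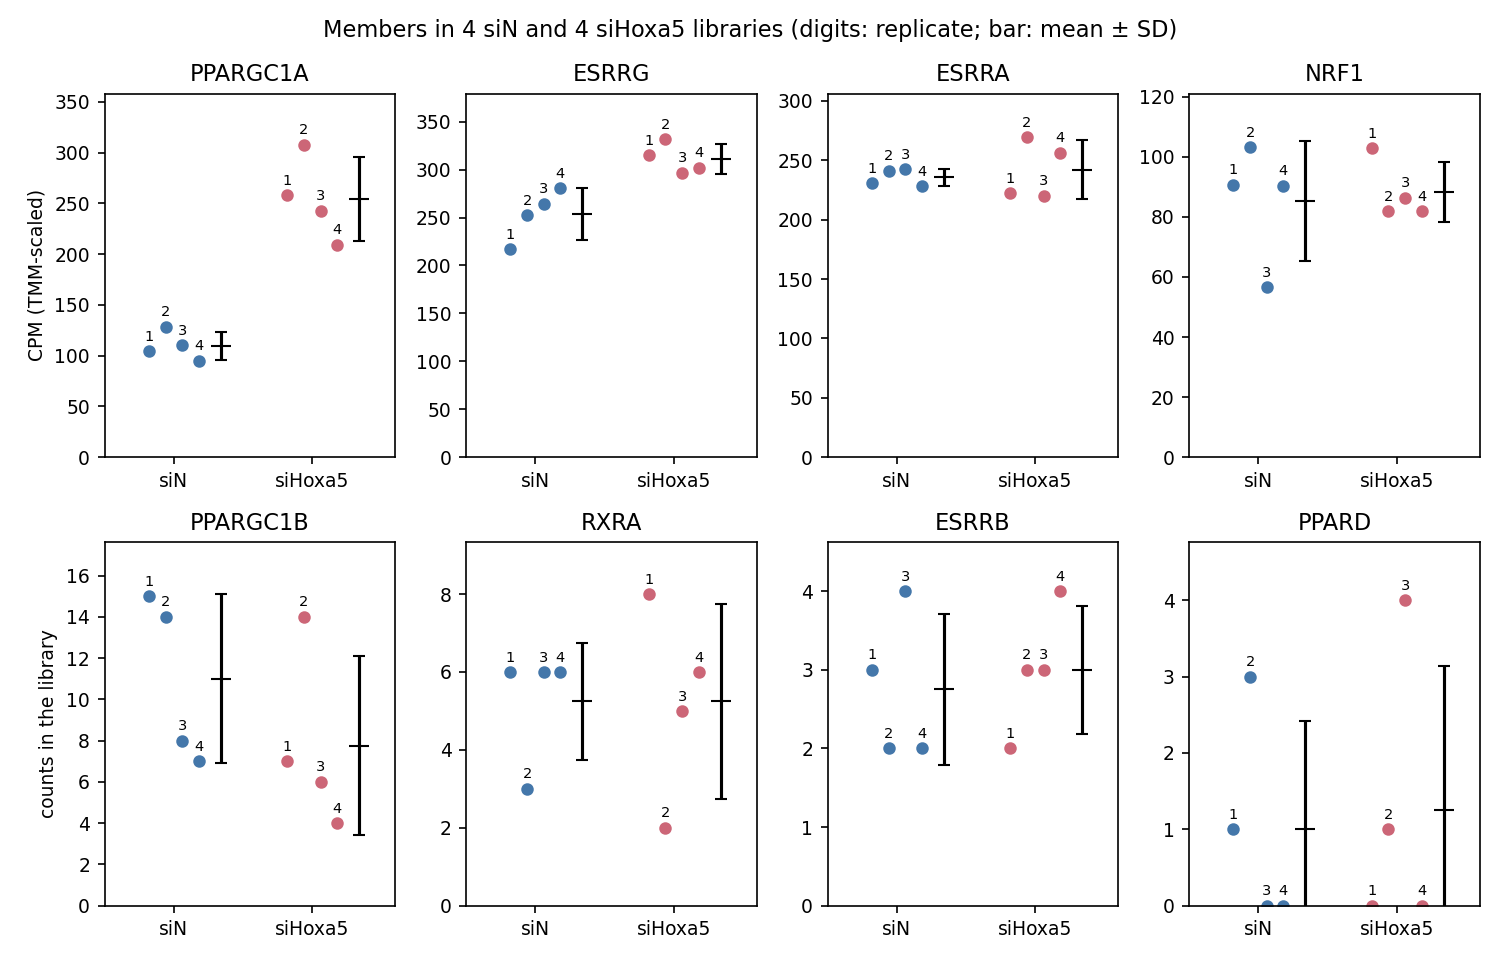
Upper row: CPM (TMM-scaled library sizes) of PPARGC1A, ESRRG, ESRRA and NRF1. Lower row: counts of PPARGC1B, RXRA, ESRRB and PPARD, each point 1 library with its replicate number, and the bar mean ± SD (n = 4). The siN and siHoxa5 points do not overlap for PPARGC1A (94.98 to 129 against 209 to 308 CPM) and ESRRG, and overlap for the other 6; the lower row shows how few counts those genes had.

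The estrogen-related receptors are orphan nuclear receptors that use PGC-1 proteins in place of a ligand. ESRRG, the form prominent in oxidative tissue, had 217, 252, 264 and 280.3 CPM in siN libraries 1 to 4 and 315, 332, 297 and 302 CPM in siHoxa5 libraries 1 to 4. The groups did not overlap, but the highest siN library and the lowest siHoxa5 library were close. The means were 254 ± 27.0 and 311 ± 15.5 CPM, a log2 fold change of 0.30 (SE 0.10), or 1.23-fold. ESRRG stood at the edge of the threshold: it was not called in 13 of 18 alternative settings, among them DESeq2 and the fits without any single one of siN libraries 1, 2 and 3 (0.23, 0.29 and 0.31) and siHoxa5 libraries 1, 2 and 3 (0.29, 0.27 and 0.32), while the log2 fold change stayed between 0.23 and 0.35 in all 18.

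ESRRA, the most widely expressed of the 3 receptors and itself a classical target of PGC-1alpha, was nearly level. It had 231, 241, 242 and 228 CPM in siN and 222, 269.6, 220.1 and 256 CPM in siHoxa5 libraries. The groups overlapped on both sides, with siHoxa5 libraries 2 and 4 above and 1 and 3 below every siN library. The log2 fold change was 0.03 (SE 0.11), and without siHoxa5 libraries 2 and 4 it was -0.09. Group sums were 605 and 560 counts, and the exact 95% interval of the ratio of rates ran from 0.910 to 1.15, which leaves room for a small difference in either direction. ESRRB, best known from stem cells and the placenta, had 2 to 4 counts in every library (11 in siN, 12 in siHoxa5, ratio 1.20, interval 0.487 to 3.02).

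NRF1, which binds promoters of many nuclear genes for mitochondrial proteins, had 90.7, 103, 56.7 and 90.4 CPM in siN and 103, 82.0, 86.4 and 81.8 CPM in siHoxa5 libraries. siN library 3 was the lowest of all 8 and the other values overlapped. The log2 fold change was 0.05 (SE 0.17); it was -0.10 without siN library 3 and 0.16 without siN library 2. The wide spread in siN (85.2 ± 19.96 CPM, against 88.3 ± 9.96 in siHoxa5) limits what this comparison can show.

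The fatty acid receptors and TFAM were too low to compare. PPARA, the main PPAR of heart muscle and the sensor that switches on fatty acid oxidation, stood at 0 in all 8 libraries. A count of 0 allows up to 3 counts, or 1.17 CPM over the siN libraries and 1.29 CPM over the siHoxa5 libraries. PPARD, a second PPAR of muscle, had 1, 3, 0 and 0 counts in siN and 0, 1, 4 and 0 in siHoxa5. RXRA, the obligate partner of PPARs, had 6, 3, 6 and 6 counts in siN and 8, 2, 5 and 6 in siHoxa5, 21 in each group (ratio of rates 1.10, exact 95% interval 0.574 to 2.13). TFAM, which packages and transcribes mitochondrial DNA, had a single count, in siN library 3. Because abundant heart genes also stood at 0, these values do not show that the transcripts were absent from the cells.

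In all, 9 of the 10 members had a count, 4 passed the filter, and 2 of these 4, PPARGC1A and ESRRG, were higher past the threshold (edgeR, p adjusted over all genes tested and under 0.05) and none lower. Of all 3020 genes tested, 7.12% passed, 3.74% higher and 3.38% lower. With DESeq2 1 member, PPARGC1A, was called, against 3.61% of genes, and without siHoxa5 libraries 2 and 4 also only PPARGC1A, against 4.45%. PPARGC1A and ESRRG also had groups that did not overlap, as did 12% of all genes tested, 6.19% higher and 5.76% lower. The choice of members used this contrast, so nothing is read from these shares. The median log2 fold change of the 4 tested members was 0.17, and that of all tested genes -0.00.

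**Figure D2:**
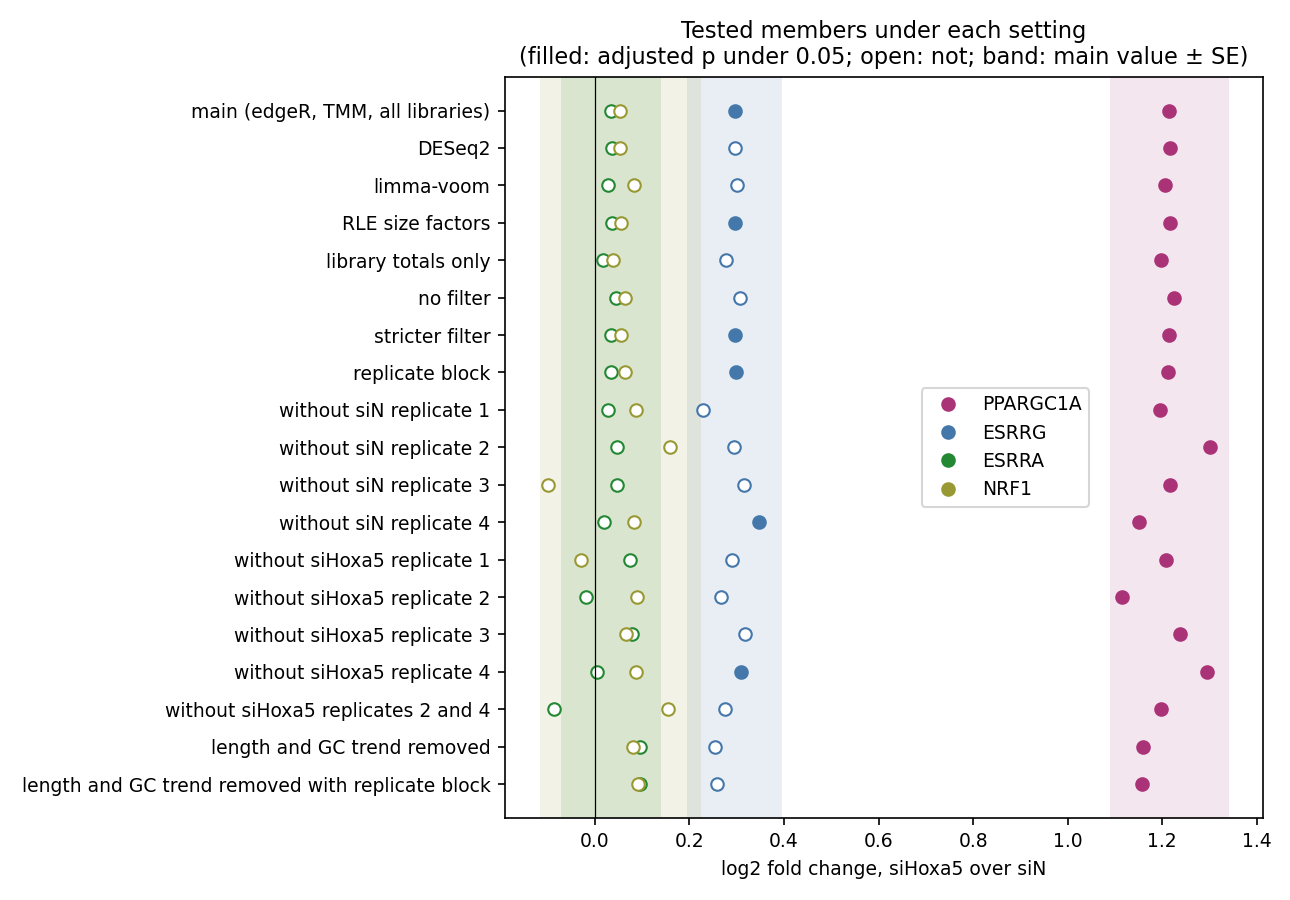
Log2 fold change (siHoxa5 over siN) of the 4 tested members in the main fit and 18 alternatives, 1 row each; filled points passed the adjusted threshold, open points did not, and bands show the main value ± SE. PPARGC1A, chosen with this difference known, lies between 1.12 and 1.30, ESRRG between 0.23 and 0.35 and mostly open, and ESRRA and NRF1 lie on both sides of 0.

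Levels of different genes were compared only per length, as CPM per kilobase of the longest coding transcript of the mouse namesake in GENCODE M21. In siN the order was ESRRA (105 ± 3.22), ESRRG (47.2 ± 5.02), NRF1 (23.8 ± 5.57), PPARGC1A (17.0 ± 2.19), PPARGC1B (4.69 ± 1.75), RXRA (1.66 ± 0.462) and ESRRB (0.997 ± 0.352 CPM per kb, SD, n = 4), with PPARD, TFAM and PPARA below. In siN the ranges of NRF1 and PPARGC1A overlapped, as did those of RXRA, ESRRB and PPARD with each other. In siHoxa5 libraries PPARGC1A (39.4 ± 6.35 CPM per kb, 32.4 to 47.6) stood above NRF1 (24.6 ± 2.78, 22.8 to 28.7) without overlap and below ESRRG (57.9 ± 2.89, 55.2 to 61.7). Of the members' raw counts, not divided by length, PPARGC1A supplied 15.3% in siN and 27.5% in siHoxa5. Its transcript is the longest of the members (6.46 kb), which raises that share. The lengths are those of mouse transcripts, so this order means little if reads were counted against human sequence.

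The wider network was read from 10 pathway lists, written with earlier results of these data known, so that their counts are no independent evidence of a direction. Of 362 listed genes 358 had a row, 132 of these stood at 0 in every library, and 111 passed the filter. Past the threshold 17 were higher and 1 was lower, and 93 were not past it, with a median log2 fold change of 0.05; over all 3020 genes tested 3.74% were higher and 3.38% lower, with a median of -0.00, the background for each list below. Without siHoxa5 libraries 2 and 4, 11 of the 111 were called (4.45% of all genes), and with DESeq2 also 11 (3.61% of all genes).

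Among 38 other coregulators and receptors of the PGC-1 network, 23 were tested; 1 rose, none fell, and the median was -0.03. THRA, the thyroid hormone receptor alpha, which sets heart rate and metabolism and can be coactivated by PGC-1alpha, had 426, 400.0, 478 and 377 CPM in siN and 542, 556, 540 and 664 CPM in siHoxa5. Every siHoxa5 library was above every siN library, and the difference was 0.45 in log2 (SE 0.08; edgeR, adjusted p = 1.02e-05); it kept its call in all 18 alternatives. THRA overlaps an antisense neighbour in the genome, NR1D1, and the kit does not mark strand, so reads from the stretch they share cannot be told apart. NR4A1, an immediate-early orphan receptor, had a log2 fold change of -0.77 (SE 0.33), and PRDM16, a PGC-1 partner of brown fat, -0.55 (SE 0.24); neither passed. The corepressor NCOR1 (0.04, SE 0.08), the acetyltransferase EP300 (0.06, SE 0.11) and the Mediator subunit MED1 (-0.11, SE 0.10), through which PGC-1 proteins reach chromatin and RNA polymerase, were near level and did not pass.

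Of 47 genes known to act on PPARGC1A or its protein 33 were tested; 4 rose (3.74% of all genes tested did), none fell (3.38% of all), and the median was 0.03. PRKAA2, the catalytic alpha2 subunit of AMP-activated kinase, which phosphorylates PGC-1alpha, had 149, 165, 143 and 129 CPM in siN and 199, 202, 229.9 and 253 CPM in siHoxa5. All 4 siHoxa5 libraries were higher than any siN library, by 0.59 in log2 (SE 0.12; edgeR, adjusted p = 0.000149). PRKAA1, the gene of the alternative catalytic subunit, had a value as large with more error (0.59, SE 0.29) and did not pass. HDAC9, a class IIa deacetylase that represses MEF2 factors, rose by 1.53 (SE 0.34), from 11.7 ± 2.57 to 34.1 ± 6.15 CPM. It passed the filter on low counts only through the siHoxa5 libraries, with 5 to 9 counts in siN, so it had to be higher to be tested, and the stricter filter left it untested. MEF2C, a factor that activates the PPARGC1A promoter in muscle, rose by 0.37 (SE 0.09). The list thus joins risers of opposite known action on MEF2 targets; both were known to be higher when it was written. ADRB1, the beta1-adrenergic receptor, rose by 0.33 (SE 0.10, edgeR adjusted p = 0.035), but lost its call in 10 of 18 alternatives and had 0.21 without siHoxa5 library 2 and 0.18 without siHoxa5 libraries 2 and 4. It also lost its call without siHoxa5 library 3 (0.34) and without siN library 1, 2, 3 or 4 (0.31 to 0.34). DESeq2 (0.33), limma-voom (0.31) and library totals only (0.31) did not call it either. NAMPT, which makes the NAD used by sirtuins, had -0.47 (SE 0.19) and did not pass, although its groups did not overlap; TWIST1, a repressor of PGC-1alpha targets, had -0.23 (SE 0.11), and CREB1, which binds cAMP response elements, -0.13 (SE 0.12).

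**Figure D3:**
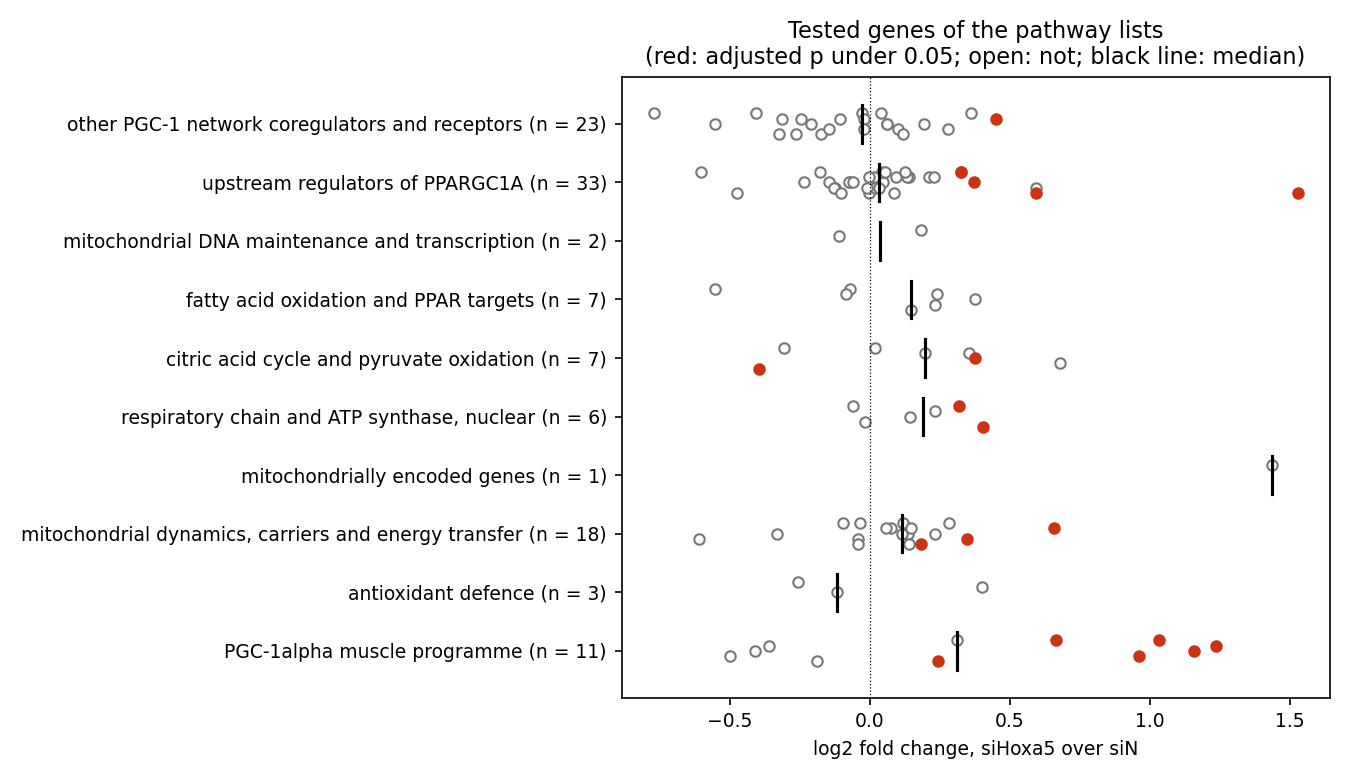
Log2 fold change (siHoxa5 over siN) of every tested gene in the 10 pathway lists; red points passed the adjusted threshold, open points did not, and black lines are medians. Red points lie to the right of 0 except PDP1 at -0.40, and most genes of the large coregulator and upstream lists lie near 0.

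Target genes of the PPAR and PGC-1 pathway in fatty acid oxidation could mostly not be measured. Of 51 listed genes 38 stood at 0 in every library, among them CPT1B, the muscle carnitine palmitoyltransferase, CD36, the fatty acid transporter, PDK4, ACADM and HADHA. The 7 tested genes had a median of 0.15, and none passed. ETFA, which passes electrons from acyl-CoA dehydrogenases towards the respiratory chain, had 368, 339.7, 329 and 349 CPM in siN and 389, 421, 404 and 426 CPM in siHoxa5. Its groups did not overlap, yet its difference of 0.24 in log2 (SE 0.09; edgeR, adjusted p = 0.072) did not pass. It was 0.33 and passed once the dependence of each library on length and GC was taken out. HADHB, a subunit of the trifunctional protein, had 0.23 (SE 0.20), ETFDH, the acceptor of ETFA's electrons, 0.38 (SE 0.25), and UCP2, an uncoupling protein, -0.55 (SE 0.33).

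In the citric acid cycle and pyruvate oxidation list 7 of 32 genes were tested; 1 rose and 1 fell. OGDH, a subunit of the 2-oxoglutarate dehydrogenase complex, had 408, 481, 496 and 466 CPM in siN and 558, 614, 538 and 695 CPM in siHoxa5, without overlap and 0.38 apart in log2 (SE 0.08; edgeR, adjusted p = 0.000244). PDP1, the phosphatase that activates pyruvate dehydrogenase, fell by 0.40 on the log2 scale (SE 0.12, edgeR adjusted p = 0.0216), from 218 ± 18.6 to 166 ± 22.7 CPM. Both lost their calls without siHoxa5 libraries 2 and 4 (0.25 and -0.39), and PDP1 also without siN library 1 (-0.34) or 2 (-0.38) or siHoxa5 library 2 (-0.33) or 3 (-0.35). PDP1 was not called with DESeq2 (-0.39) or with no filter (-0.38) either. IDH3B, a subunit of isocitrate dehydrogenase, had 0.20 (SE 0.09) and did not pass, but did without siHoxa5 library 1 (0.29) and with the length and GC trend removed (0.31). PDK1, a kinase that inactivates pyruvate dehydrogenase, had 0.68 (SE 0.38) on few counts.

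Of 51 nuclear genes of the respiratory chain and ATP synthase 6 were tested; 2 rose and none fell, against 3.74% and 3.38% of all genes tested. ATP5F1B, the catalytic beta subunit of ATP synthase, rose by 0.32 (SE 0.07), and NDUFS1, the largest subunit of complex I, by 0.41 (SE 0.12); both were known to be higher when the list was written, and both lost their calls without siHoxa5 libraries 2 and 4 (0.24 and 0.39). NDUFS1 also lost it with DESeq2 (0.41), without siN library 2 (0.36) or 4 (0.34) and without siHoxa5 library 2 (0.37) or 3 (0.41). ATP5MC3 and ATP5MC1, which encode the c ring of ATP synthase, had 0.14 (SE 0.06) and 0.23 (SE 0.10), and COX5A of complex IV -0.02 (SE 0.13); none of these passed.

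Genes of mitochondrial dynamics, carriers and energy transfer gave 3 risers among 18 tested of 42 listed, and none fell (median 0.12), against 3.74% and 3.38% of all genes tested. SLC25A3, the phosphate carrier that feeds ATP synthase, had 2982, 2943, 2972 and 2924 CPM in siN and 3561, 4244, 3600.2 and 3618 CPM in siHoxa5. The 4 siN values lay close together and all 4 siHoxa5 values were above them (log2 fold change 0.35, SE 0.05, edgeR adjusted p = 2.34e-08). CKB, the brain-type creatine kinase, had 96.9, 95.2, 132 and 103 CPM in siN and 162, 173, 157 and 184 CPM in siHoxa5, again without overlap (0.66, SE 0.14, adjusted p = 0.000228). SLC25A4, the heart form of the ADP/ATP carrier, rose by 0.18 (SE 0.06, adjusted p = 0.0303), and lost its call without siN library 1 (0.19), 2 (0.19) or 3 (0.15) and without siHoxa5 library 4 (0.15). SLC25A4 was also not called with DESeq2 (0.18) or with no filter (0.19). Its paralog SLC25A5 had -0.04 (SE 0.06), and reads of such close copies may have been split between them. The adjusted p-values of this paragraph are edgeR's.

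Mitochondrial DNA maintenance and transcription, the processes TFAM serves, were almost unmeasured: 17 of 32 genes stood at 0, among them TFB1M, TFB2M and POLRMT, the partners of TFAM in transcription. Only the polymerase POLG (-0.11, SE 0.18) and the protease subunit CLPX (0.18, SE 0.17) were tested, and neither passed. Of the mitochondrially encoded genes 13 had a row, and together they held 0.00299% to 0.00829% of the counts in siN and 0.00455% to 0.0264% in siHoxa5. MT-CO1, a subunit of complex IV and the only one tested, had 9, 7, 23 and 13 counts in siN and 13, 37, 21 and 56 in siHoxa5. Its highest values lay in siHoxa5 libraries 2 and 4, and its difference of 1.44 in log2 (SE 0.57; edgeR, adjusted p = 0.215) did not pass. In siN only libraries 3 and 4 reached the minimum count of 10 in the filter on low counts, while every siHoxa5 library did. MT-CO1 thus entered the test mainly through the group where it was high, and its calls carry no weight. It passed in 6 of 18 alternatives, with 1.72 without siHoxa5 library 1 and 0.99 without siHoxa5 library 4. Without both siHoxa5 libraries 2 and 4 it was 0.46 and did not pass. Antioxidant genes gave 3 tested members, GCLM (0.40, SE 0.23), PRDX1 (-0.12, SE 0.15) and GCLC (-0.26, SE 0.36), and none passed.

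A list of muscle genes linked to PGC-1alpha had 11 tested of 32, of which 6 rose and none fell, against 3.74% and 3.38% of all genes tested. DESeq2 called 3 and the stricter filter 3. All 6 were known to be higher when the list was written, so its count carries no weight: ATP2A2 (0.66), MYH7 (0.24), CASQ1 (1.23), KLHL41 (0.96), KCNN2 (1.16) and PFKM (1.03). CASQ1, KCNN2 and PFKM passed the filter on low counts only through the siHoxa5 libraries, so each had to be higher to be tested, and the stricter filter left all 3 untested. KLHL41, with 11 to 18 counts in siN, passed the stricter filter (20 counts in 4 libraries) only through the siHoxa5 libraries. Its call under that filter therefore carries no weight. Both tested skeletal muscle markers, CASQ1 and ACTA1 (0.22, SE 0.06), were also higher; the part of the higher skeletal and cardiac marker shares in this list was not tested. Without siHoxa5 libraries 2 and 4 CASQ1 (0.62), KCNN2 (1.11) and PFKM (1.06) were not called. CASQ1 also lost its call without siHoxa5 library 2 (1.04). KLHL41 lost it with DESeq2 (0.97) and without siN library 3 (0.83) or siHoxa5 library 1 (0.82). KCNN2 lost it without siN library 2, 3 or 4 (1.04, 1.03 and 1.22) or siHoxa5 library 2, 3 or 4 (1.21, 1.09 and 1.07). DESeq2 (1.17) and the fit with no filter (1.17) did not call KCNN2 either. PFKM lost its call without siN library 1, 2 or 4 (1.02, 0.93 and 0.96) or siHoxa5 library 3 or 4 (0.89 and 0.93). It was also not called with DESeq2 (1.04), limma-voom (1.00) or no filter (1.04). VEGFA, an angiogenic growth factor that PGC-1alpha can induce, went the other way, from 1139 ± 68.0 to 999 ± 140.5 CPM (-0.19, SE 0.07, edgeR adjusted p = 0.059). It passed as lower without siHoxa5 library 2 (-0.29), without siHoxa5 libraries 2 and 4 (-0.24) and with a replicate block (-0.19). TNNI1, the slow skeletal troponin I, had -0.41 (SE 0.15) and passed as lower without siHoxa5 library 3 (-0.57).

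The genes with profiles most like that of PPARGC1A were found by the root mean square difference in log2 CPM over the 8 libraries, each gene centred on its own mean, among 2787 other tested genes with at least 20 CPM. They were STC1, a secreted glycoprotein (0.15), FGF13, an intracellular regulator of sodium channels (0.23), SNAP91, a clathrin assembly protein (0.23), MYH13, a myosin heavy chain of extraocular muscle (0.24), and MICAL3, an actin-binding oxidoreductase (0.24). The median over all genes was 0.65, and ESRRG stood at 0.48. All 5 had groups that did not overlap, for example STC1 with 103, 100.0, 99.2 and 106 CPM in siN against 243, 275, 258 and 216 CPM in siHoxa5. The measure is small for any gene with a similar difference between groups, which fixed this choice. MYH13 resembles the far more abundant MYH6 and MYH7 in sequence, so its reads may not be its own.

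**Figure D4:**
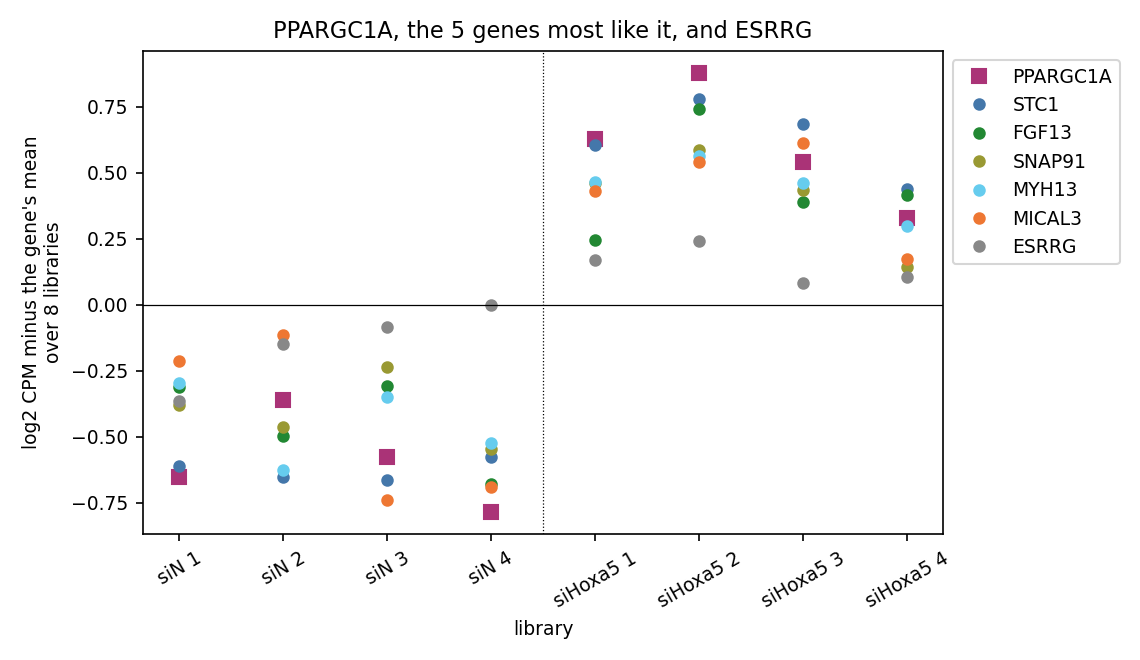
Log2 CPM of PPARGC1A (squares), the 5 genes nearest to it and ESRRG in each library, minus the gene's own mean over the 8 libraries. PPARGC1A and its 5 nearest genes lie below 0 in every siN library and above 0 in every siHoxa5 library, with siHoxa5 library 4 the lowest of its group for PPARGC1A and every one of the 5 but FGF13, while ESRRG spans a smaller range.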

How the data were processed

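RNA-seq of 8 libraries (4 siN, 4 siHoxa5) was used; groups and replicate numbers come from the sample titles. Per the labels, mRNA was selected with poly-T beads, made into TruSeq libraries and sequenced on a NovaSeq instrument. The deposited table holds estimated counts for each symbol without normalization, whole except in 4 rows. The build mm10 and the tools STAR 2.6.1b, FastQC 0.11.8, R 3.5.3 and HTSeq are named per the submitters' processing notes; the sources used here do not give the annotation, the strand setting or how reads matching several genes were handled. Of 33514 symbols, 16245 matched a mouse symbol once case was ignored and 19 exactly.

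Counts were rounded and tested with edgeR 4.0.16 (robust quasi-likelihood fit, TMM, filterByExpr with minimum count 10 and minimum total 15, group as the only term; R 4.3.3, limma 3.58.1), adjusted by the Benjamini-Hochberg method over 3020 genes at 0.05; the fit was tested on simulated data. The filter kept 98.6% of the counts. The SE of a log2 fold change was derived from edgeR's quasi-likelihood F, as the size of the change divided by the square root of F. Its median was 0.17. SDs are of CPM on TMM-scaled totals; intervals and limits for counts cover counting error only.

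The members and lists were chosen with earlier results of these data known. Named are the members, HOXA5, in each pathway list up to 6 genes past the threshold and 2 not past it by smallest p, and the 5 genes most like PPARGC1A; other genes were named after their values were seen. Alternatives were DESeq2 1.42.0, limma-voom, RLE factors, library totals, no filter, at least 20 counts in 4 libraries, a replicate block, each library left out, siHoxa5 2 and 4 left out, and removal of the length and GC trend (96.0% of tested genes had both values), alone and with the block. Promoters come from RefSeq (9 of 10 members).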

Additional observations from a re-analysis of the deposited data

Results flagged for a closer look

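Within a group of 4 libraries, the highest or lowest value was set against Dixon's critical value for 36 sets of member CPM, library properties and marker shares; chance flags about 1 in 20, and 3 stood out. RXRA had 4.76 CPM in siN library 2, against 9.19 to 9.44 CPM in the other siN libraries, a difference of 3 counts from 6. Mitochondrially encoded genes held 0.00829% of the counts of siN library 3, against 0.00299% to 0.00380% in the others. Leukocyte markers held 0.000156% of siN library 3, which is 1 count, against 0 in the others.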

How the results depend on the processing

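PPARGC1A, chosen with this contrast known, had 1.12 to 1.30 with single libraries left out and 1.16 with the trend on length and GC taken out, which describes it and supports nothing further. The genes called, 215, were 109 with DESeq2 (all 109 among the 215), 143 without siHoxa5 libraries 2 and 4 (118 shared) and 145 to 260 with single libraries left out. Members called fell from 2 to 1 with DESeq2, limma-voom, library totals only, no filter, without siHoxa5 libraries 2 and 4, and with the trend on length and GC taken out, with or without the replicate block; single libraries left out gave 1 to 2. The gene lost was ESRRG, at 0.30 with DESeq2, 0.30 with limma-voom, 0.28 with totals only, 0.31 with no filter, 0.28 without siHoxa5 libraries 2 and 4, 0.25 with the trend removed, 0.26 with trend and block, and 0.23 to 0.35 with single libraries left out; the cause was not tested. Pathway genes called, 18, were 11 with DESeq2, 11 without siHoxa5 libraries 2 and 4, and 13 to 20 with single libraries left out. Deviations of same-numbered libraries had correlations of -0.02 to 0.07, against -0.05 to 0.04 for libraries of different number. Correlations this small, from libraries of few counts, cannot settle whether same-numbered libraries share an animal or culture. A replicate block gave 250 calls, all 215 among them, and 2 members and 20 pathway genes, VEGFA (-0.19) and MT-CO1 (1.40) among the latter. Of 25 named genes called, 14 were called in every alternative that tested them and none reversed. Totals of at most 658192 counts limit genes of few counts: 5 members had counts but could not be tested.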

Other observations

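With each gene centred within its group, so that the difference between groups no longer counts, tested genes among the nearest to PPARGC1A were WT1 (0.07 root mean square difference in log2 CPM), RALGAPB (0.08), UBE2Q2 (0.08) and SLTM (0.09), against a median of 0.24 over 2787 genes. None of these 4 was called between siHoxa5 and siN, and none of the 5 nearest over all libraries was among them. ESRRA (0.17) and ESRRG (0.19) were nearer to PPARGC1A than that median and NRF1 (0.28) was farther. With 4 libraries in a group, and with genes of little spread near to any profile of small spread, these are descriptions of the libraries and carry no test.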
